A study of Homo sapiens with 58 samples.

Results

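The 41 genes described here encode the machinery that copies DNA and the enzymes and regulators that bring cells into S phase. They were listed by name, although earlier results of these data were known when the list was made. All 41 were found among the 60675 gene identifiers of the table and among the 13945 genes with enough reads to be tested. Messenger RNA was measured in HepG2, an established human hepatocellular carcinoma line, after 24 h with herbal extracts. The ethanol extracts were of Scutellariae Radix (skullcap root), Coptidis Rhizoma (goldthread rhizome), Zingiberis Rhizoma (dried ginger), Zingiberis Rhizoma Recens (fresh ginger), Pinelliae Tuber and Zizyphi Fructus (jujube). Sayeok-tang and Bojungikgi-tang, formulas of several herbs, were water extracts. The doses were 20 (low), 100 (medium) and 500 (high) µg/mL, except for Coptidis Rhizoma, which was given at 11.2 (low) and 56 (medium) µg/mL because the series text lowered the doses of more toxic extracts. The vehicle was DMSO, 0.1% in the sample labels and 2% in the series text. The 58 libraries formed 24 groups, with 3 libraries in the vehicle and at most doses, 2 at each dose of Bojungikgi-tang and at the high dose of dried ginger, and a single library per dose of Coptidis Rhizoma and of Zizyphi Fructus.

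Before S phase, the origin recognition complex (ORC), CDC6 and CDT1 load the MCM2-7 helicase onto origins of replication, a step called licensing. In S phase, CDC45 and the GINS complex join MCM2-7 to form the active helicase. Primase and the polymerase that extends primers start the strands, and other DNA polymerases copy them on the sliding clamp PCNA. FEN1 and LIG1 join the Okazaki fragments of the lagging strand. Many of these genes are transcribed under E2F factors, which the retinoblastoma protein holds back until cyclin and CDK activity releases them, and the CDK inhibitor p21, encoded by CDKN1A, opposes that release.

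The summed counts were 22143845 to 31859981 per library. Nothing in the labels states that replicates came from different cultures, and the p-values therefore reflect the spread between these samples alone, possibly a technical one. In the label codes the vehicle has its own prefix and the extracts have 4 others, shared by the 2 formulas, by the 2 gingers, by Pinelliae Tuber with Scutellariae Radix, and by Coptidis Rhizoma with Zizyphi Fructus. If a prefix marks samples handled together, that handling and the treatment cannot be told apart against the vehicle, whereas the doses of an extract, and extracts that share a prefix, are compared within it. All 10 hepatocyte markers had reads in all 58 libraries, with ALB at 7830 to 11200 CPM (counts scaled to a common library size). COL1A2, DCN and PTPRC, which mark fibroblasts and leukocytes, had none, while PDGFRB (3.7 to 23.5 CPM), CD68 (26.9 to 74 CPM) and LYZ (1150 to 2320 CPM) were read in all. So were COL1A1 (0.159 to 1.41 CPM), CD14 (1.1 to 2.84 CPM) and PECAM1 of endothelium (1.69 to 4.17 CPM). The other listed markers of fibroblasts, leukocytes and endothelium stayed below 1 CPM. Replicate 3 of Scutellariae Radix low and replicate 3 of dried ginger low stood apart from their groups, and Zizyphi Fructus low from its other doses. Less far apart, replicate 1 of fresh ginger high differed from replicates 2 and 3 by a chi-square of 8.484 and 9.463 per gene. Replicates 2 and 3 of that group differed by 3.74. In a culture of 1 cell line, fewer cells in S phase and less of these messages in each cell cannot be told apart.

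The promoters of the genes were read for the E2F-type words TTTCCCGC, TTTCGCGC, TTTGCCGC and TTTGGCGC on either strand, in windows of 250 bases before to 50 bases after each start (RefSeq, GRCh38.p14). Of the 41 genes, 35 were matched by symbol, and 19 of these, 54.3%, held at least 1 word in a window. Of the 27305 genes of the promoter reference, which are not only the genes tested here, 1090 did, 3.99%. The word on 1 strand can overlap another on the other strand, as in MCM6. CCAAT was found in 60% of the matched genes and in 39.7% of all genes of the promoter reference, and GGGCGG in 77.1% and 48.3%. A match is a word in the window and is no evidence that a factor is bound there. The stretches below carry E2F-type words, which as a class differed more from the promoter reference in frequency than CCAAT or GGGCGG did. They are examples, and none is from the genes that copy chromatin with the DNA. Capitals mark the E2F-type words, and each line runs 5′ to 3′ on the strand of the gene, upstream of its RefSeq start.
MCM6, chr2:135876514-135876613, minus strand: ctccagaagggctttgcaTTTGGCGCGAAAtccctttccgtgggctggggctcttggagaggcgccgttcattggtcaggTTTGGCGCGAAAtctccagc
POLA1, chrX:24693758-24693817, plus strand: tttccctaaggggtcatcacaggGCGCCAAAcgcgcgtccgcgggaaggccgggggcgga
PCNA, chr20:5126643-5126702, minus strand: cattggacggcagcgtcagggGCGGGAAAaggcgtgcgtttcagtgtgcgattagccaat
CDT1, chr16:88803744-88803773, plus strand: cagggcgcccGCGGGAAAtttggcgggaac
GINS2, chr16:85688966-85688995, minus strand: tctcgccgtgGCGGGAAAacggcggccgcg
LIG1, chr19:48170440-48170469, minus strand: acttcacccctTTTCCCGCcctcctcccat
TYMS, chr18:657603-657632, plus strand: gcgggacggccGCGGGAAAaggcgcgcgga
E2F1, chr20:33686396-33686425, minus strand: ctctttcGCGGCAAAaaggaTTTGGCGCgt
In MCM6 the words form 2 overlapping pairs, and in E2F1 2 separate words face opposite ways.

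All 41 genes fell with Scutellariae Radix at 500 µg/mL, where 28.1% of all genes tested were called lower. A call means an adjusted p under 0.05 in edgeR's quasi-likelihood test, with Benjamini-Hochberg adjustment over the 13945 genes. Of the 41, 21 fell by at least 1.5-fold with Scutellariae Radix, against 6.84% of all genes, and 28.7% of all genes were called higher. The summed hepatocyte markers were lower in the same libraries, at 30270 to 30700 CPM, against 40920 to 41590 CPM in the vehicle. With dried and fresh ginger high they were at 35470 to 36660 and 37770 to 39320 CPM, and with Coptidis Rhizoma medium at 35220 CPM. With Sayeok-tang high they were at 35190 to 38210 CPM and with Scutellariae Radix medium at 33880 to 37760 CPM. Their part in the changes of the 41 genes was not tested. Dried and fresh ginger at 500 µg/mL lowered 33 and 30 of the 41, against 22.8% and 23.6% of all genes, and raised 1 and 3, against 23.3% and 24.3%. Sayeok-tang lowered 7 and raised 6, against 19.9% and 20.3% of all genes. Bojungikgi-tang and Pinelliae Tuber lowered 2 each and raised none, against 2.31% and 6.57% of all genes lower and 2.24% and 9.14% higher. In the single library of Coptidis Rhizoma at 56 µg/mL, 35 of the 41 were at least 1.5-fold below the vehicle mean and under all 3 vehicle libraries, against 10.7% of all genes, and none were above by that rule, against 10.4%. These comparisons share the 3 vehicle libraries, so their values are set side by side.

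**Figure D1:**
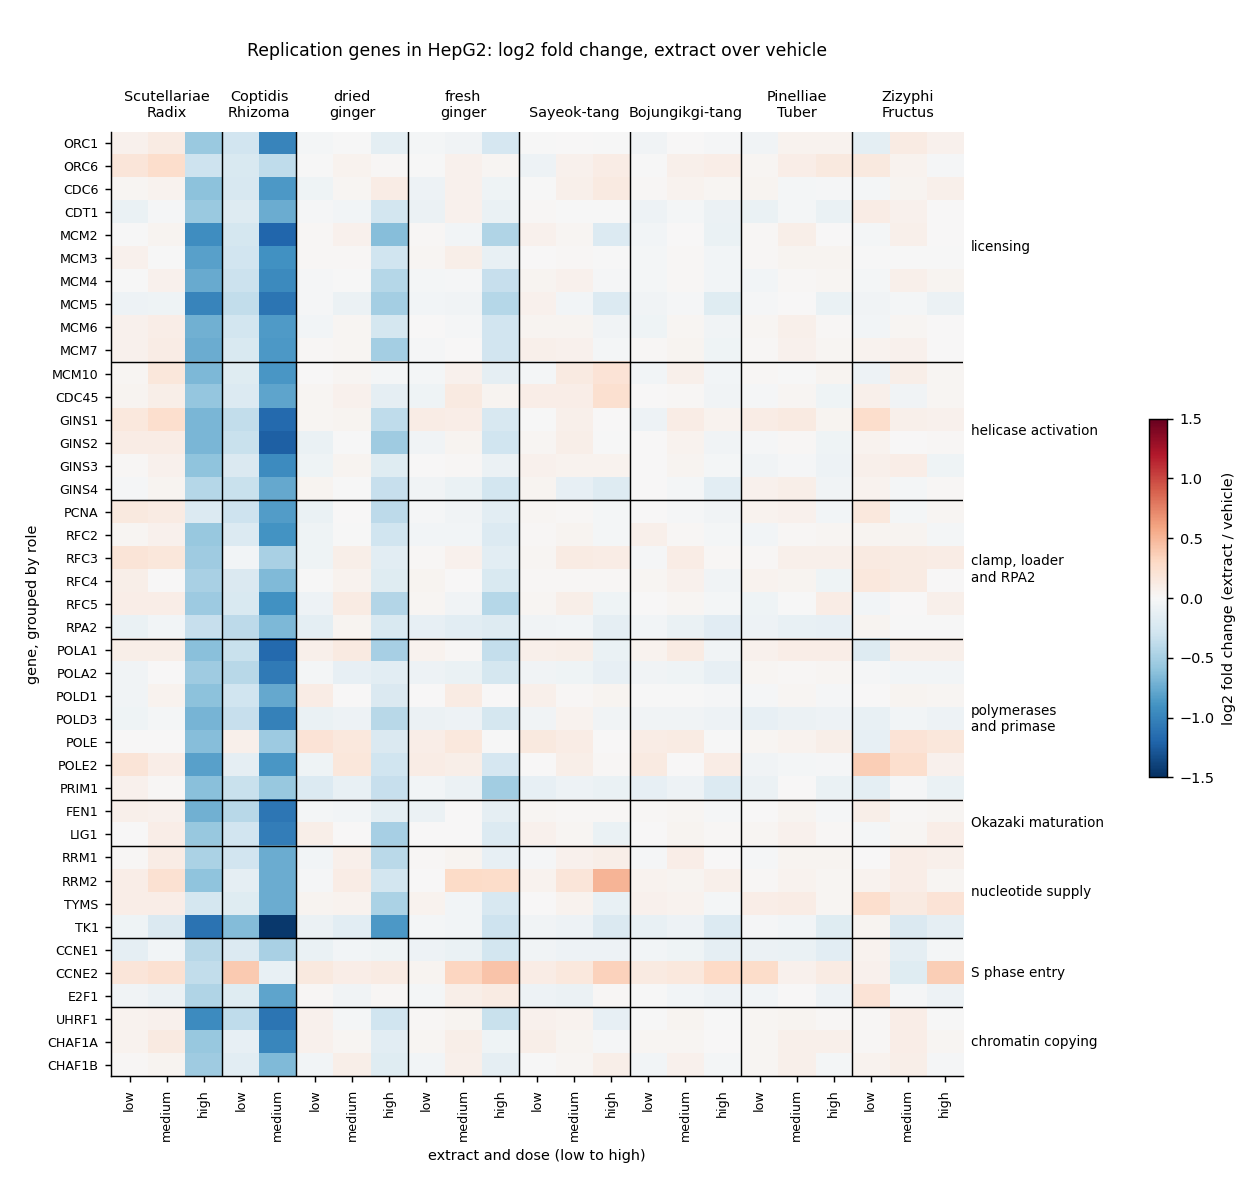
Log2 fold change over the vehicle (colour, blue lower and red higher) of the 41 genes, in rows grouped by role, for each extract and dose in columns from low to high. The columns of Scutellariae Radix high and Coptidis Rhizoma medium are blue in every row, with medians of -0.60 and -0.86, and those of the gingers turn blue only at the high dose.

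Among the licensing genes, all 10 fell with Scutellariae Radix high, by a median of 0.73 on the log2 scale, and 7 of them by at least 1.5-fold. MCM5, a subunit of the helicase ring, had 71.2, 74.4 and 76.9 CPM with the extract, against 145, 149 and 148 CPM in the vehicle. Its log2 fold change was -0.99 ± 0.05 (SE, adjusted p = 6.3e-22), 0.503 times the vehicle level. MCM2, another subunit of the ring, had 99.8, 96.1 and 103 CPM, against 186, 193 and 192 CPM in the vehicle, a change of -0.94 ± 0.04 (adjusted p = 5.8e-26). For both genes each treated library lay far below the lowest vehicle library. MCM3, MCM4, MCM6 and MCM7 complete the ring, and they fell by 0.72 to 0.81, so that all 6 subunits fell together.

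The loading factors fell less. CDC6, the ATPase that helps ORC load the ring, had 78.3, 82.8 and 79.6 CPM with Scutellariae Radix high, against 123, 124 and 121 CPM in the vehicle, a log2 fold change of -0.61 ± 0.04. CDT1, which brings the ring to origins, had 48.7, 49.6 and 52.3 CPM, against 76.0, 75.5 and 70.8 CPM, a change of -0.56 ± 0.06. ORC1, the largest subunit of the origin recognition complex, had 24.6, 23.1 and 24.3 CPM, against 35.3, 34.3 and 35.9 CPM, a change of -0.55 ± 0.04. The libraries of the 2 groups did not overlap for any of the 3. ORC6, the smallest ORC subunit, fell least in this role, by 0.32 ± 0.06 (adjusted p = 1.4e-05).

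All 6 genes of helicase activation fell, by a median of 0.64. GINS2, a subunit of the GINS complex, had 40.2, 40.9 and 40.4 CPM with Scutellariae Radix high, against 64.4, 63.8 and 67.6 CPM in the vehicle, a log2 fold change of -0.69 ± 0.05. MCM10, needed for the loaded helicase to start unwinding, had 29.3, 26.7 and 30.7 CPM, against 45.9, 47.9 and 44.0 CPM, a change of -0.67 ± 0.05. CDC45, which rides with the ring, had 15.1, 16.4 and 14.6 CPM, against 23.3, 22.1 and 23.4 CPM, a change of -0.58 ± 0.06. The treated libraries of each of these genes lay apart from the vehicle. GINS4 fell least of the 6, by 0.43 ± 0.06.

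The clamp and its loader fell by the smallest median of the fork parts, 0.51, and none of these 6 genes fell by 1.5-fold. PCNA, the sliding clamp whose promoter word is printed above, had 346, 330 and 342 CPM with Scutellariae Radix high, against 404, 370 and 399 CPM in the vehicle. Its change of -0.21 ± 0.04 (adjusted p = 4.8e-05) was the smallest of the 41, although the libraries of the 2 groups did not overlap. RFC2, RFC3, RFC4 and RFC5, subunits of the loader that opens the clamp, fell by 0.49 to 0.57. RPA2, a subunit of the complex that coats single-stranded DNA, fell by 0.34 ± 0.05.

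All 7 polymerase and primase genes fell, by a median of 0.63, and 6 of them by at least 1.5-fold. POLE2, the second subunit of the leading strand polymerase, was the least abundant of them in reads, with 7.62, 8.62 and 6.74 CPM with Scutellariae Radix high, against 13.0, 14.4 and 12.9 CPM in the vehicle. Its log2 fold change was -0.81 ± 0.08 (adjusted p = 1.4e-12). POLA1, the catalytic subunit of the polymerase that extends primers, had 28.1, 30.9 and 28.9 CPM, against 44.2, 47.1 and 44.1 CPM, a change of -0.63 ± 0.05. Neither gene had a treated library near the vehicle range. PRIM1, the primase subunit that makes the RNA primers, fell by 0.62 ± 0.06. FEN1, the nuclease that trims Okazaki fragments, had 59.4, 59.5 and 60.4 CPM, against 100, 99.7 and 95.1 CPM, a change of -0.72 ± 0.04, and LIG1, the ligase that seals them, fell by 0.57 ± 0.05.

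The 4 nucleotide supply genes held the largest fall of the 41 and, after PCNA, the next smallest. TK1, thymidine kinase, which salvages thymidine and is made mainly in S phase, fell most of the 41. It had 42.6, 41.1 and 45.5 CPM with Scutellariae Radix high, against 90.2, 93.5 and 93.6 CPM in the vehicle, a log2 fold change of -1.10 ± 0.04 (adjusted p = 2.1e-25). TYMS, thymidylate synthase, which makes thymidylate anew, had 157, 164 and 172 CPM, against 202, 197 and 194 CPM, a change of -0.27 ± 0.04 (adjusted p = 8.7e-07). Both messages were below the vehicle in all treated libraries, by unequal amounts. RRM2, the regulatory subunit of ribonucleotide reductase, had 211, 220 and 214 CPM, against 324, 333 and 321 CPM, a change of -0.60 ± 0.03, and its partner RRM1 fell by 0.47 ± 0.03.

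The regulators of S phase entry fell by less than most of the machinery, with a median of -0.42. E2F1, an activator of the replication genes, had 49.4, 50.4 and 51.1 CPM with Scutellariae Radix high, against 69.5, 68.4 and 69.2 CPM in the vehicle, a log2 fold change of -0.46 ± 0.05. CCNE1, cyclin E1, which with CDK2 starts S phase, had 26.7, 27.0 and 27.2 CPM, against 36.2, 36.7 and 35.4 CPM, a change of -0.42 ± 0.05. CCNE2, cyclin E2, was the lowest of the 41 in reads, at 2.85, 3.74 and 3.06 CPM, against 4.16, 4.28 and 3.97 CPM. Its change of -0.37 ± 0.15 had an adjusted p of 0.037, which was 0.015 to 0.16 over 12 alternatives, and the call was lost in 5 of them. These 5 were DESeq2 (0.051) and the fits without vehicle replicate 1 (0.070) or 2 (0.094) or without Scutellariae Radix high replicate 1 (0.16) or 3 (0.096). Among the genes that copy chromatin with the DNA, UHRF1, which recruits the maintenance methyltransferase to new DNA, had 84.0, 84.7 and 82.9 CPM, against 163, 159 and 161 CPM, a change of -0.94 ± 0.04. CHAF1A and CHAF1B, histone chaperone subunits, fell by 0.56 and 0.54.

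With Scutellariae Radix at the lower doses only TK1 was called lower, at 100 µg/mL. At 20 µg/mL 3 genes were called higher (PCNA, ORC6 and RFC3) and none lower, against 5.44% of all genes higher and 4.87% lower. No call was left at 20 µg/mL without its replicate 3, the library that stood apart, and the count was 1 without vehicle replicate 3. At 100 µg/mL 9 were higher and 1 lower, against 8.99% and 9.33% of all genes. The 9 were ORC6, GINS1, RRM2, MCM10, RFC3, PCNA, ORC1, MCM7 and RRM1, and the largest was the rise of ORC6 by 0.26 ± 0.06. The 10 calls in all at this dose became 6 without vehicle replicate 3. GINS1, a subunit of the GINS complex, had 81.4, 78.2 and 87.8 CPM at this dose, against 72.4, 68.9 and 66.5 CPM in the vehicle. The lowest treated library lay above the highest vehicle library. TK1, the only gene called lower at 100 µg/mL, had 84.9, 87.6 and 92.6 CPM at 20 µg/mL, 76.5, 79.9 and 81.4 CPM at 100 µg/mL and 42.6, 41.1 and 45.5 CPM at 500 µg/mL.

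Within the label prefix of Scutellariae Radix, all 41 genes were lower at the high than at the low dose, against 28.5% of all genes called lower and 27.2% higher, with a median of -0.63. All 41 were also lower at the high than at the medium dose, a comparison added after the data were seen, against 27.1% of all genes called lower and 26.8% higher, with a median of -0.67. MCM2 had 99.8, 96.1 and 103 CPM at the high dose, against 195, 198 and 196 CPM at the medium and 193, 196 and 180 CPM at the low dose. The medium and low libraries lay near the vehicle and the high ones at about the same distance from all of them. Pinelliae Tuber at 500 µg/mL, which shares the prefix, exceeded Scutellariae Radix at 500 µg/mL in all 41 genes, where 28.7% of all genes were called higher and 27.2% lower, with a median log2 difference of 0.61. UHRF1 differed most in this pair, with a mean of 163.6 CPM with Pinelliae Tuber, against 83.89 CPM with Scutellariae Radix, a difference of 0.96 ± 0.04. PCNA differed least, by 0.17 ± 0.04.

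**Figure D2:**
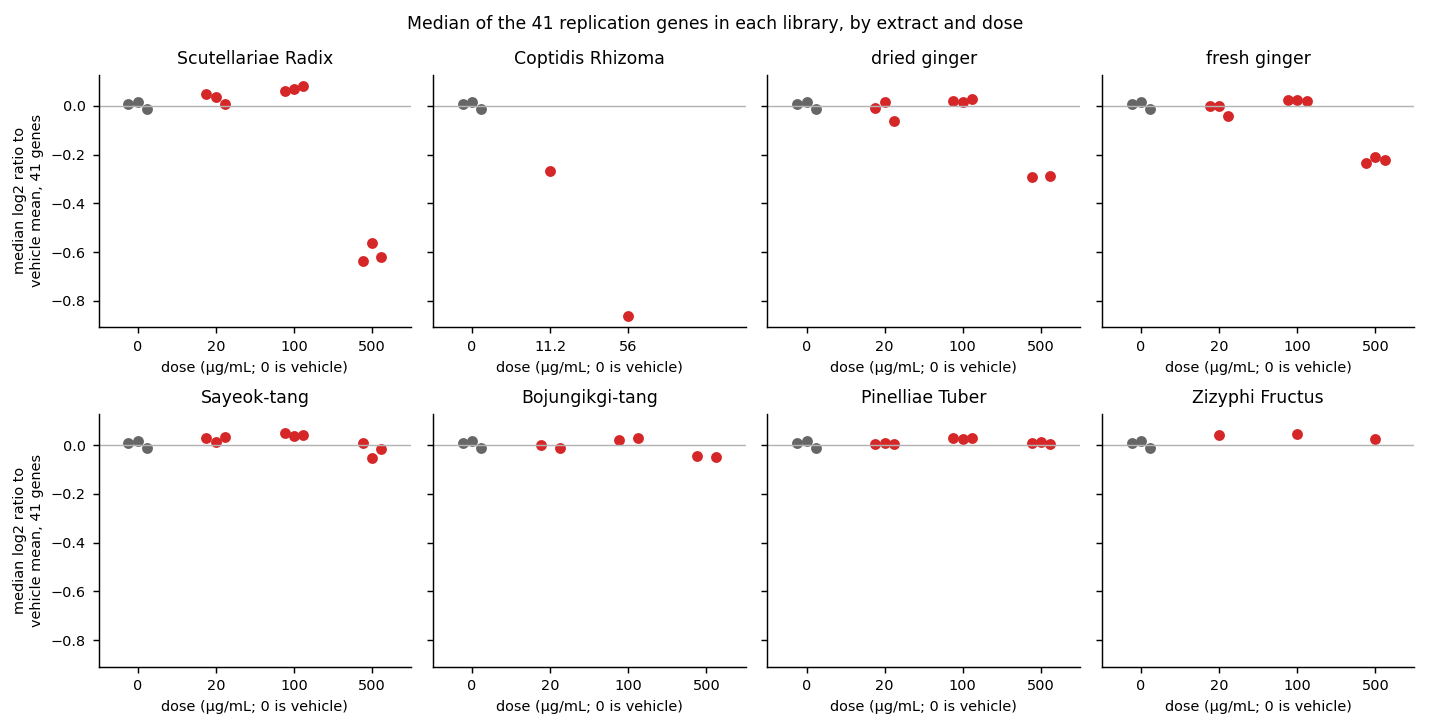
Median over the 41 genes of the log2 ratio to the vehicle mean (vertical axis) in each library, by dose in µg/mL (horizontal axis, 0 is the vehicle), 1 panel for each extract. The 3 libraries of Scutellariae Radix at 500 µg/mL lie at -0.64, -0.56 and -0.62 and those at 100 µg/mL at 0.06, 0.07 and 0.08, while Coptidis Rhizoma lies at -0.27 and -0.86 at its 2 doses.

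Coptidis Rhizoma had 1 library at each dose, so its differences have no replicate check and no test. At 56 µg/mL the median log2 fold change of the 41 genes was -0.86, while that of all genes was 0.00. TK1 was lowest against the vehicle here too, with 33.9 CPM, against 90.2, 93.5 and 93.6 CPM in the vehicle, a log2 fold change of -1.45. GINS2 at -1.22, MCM2 at -1.19 and POLA1 at -1.17 came next. PCNA had 219 CPM, against 404, 370 and 399 CPM, a change of -0.83, and E2F1 had 39.8 CPM, against 69.5, 68.4 and 69.2 CPM, a change of -0.80. CCNE2 at -0.11, ORC6 at -0.38, RFC3 at -0.48 and CCNE1 at -0.49 lay nearest to the vehicle. At 11.2 µg/mL the median of the 41 was -0.27. Only TK1, at 58.8 CPM and -0.65, passed 1.5-fold, where 2.79% of all genes passed it downward and 3.13% upward. CCNE2, at 5.45 CPM, and POLE lay above the vehicle range at this dose. These 2 libraries had the lowest TMM scaling factors of the series, 0.878 and 0.913, which moves with this result, and the part of the scaling was not tested.

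With dried ginger at 500 µg/mL (2 libraries) the 33 genes that fell had a narrower range, and only TK1 and MCM2 passed 1.5-fold, against 5.07% of all genes. TK1 had 53.6 and 48.5 CPM, against 90.2, 93.5 and 93.6 CPM in the vehicle, a log2 fold change of -0.86 ± 0.05 (adjusted p = 3.7e-19). MCM2 had 122 and 123 CPM, against 186, 193 and 192 CPM, a change of -0.64 ± 0.04. Both treated libraries of each gene were well below the vehicle. GINS2 fell by 0.54 ± 0.05, MCM5 by 0.51 ± 0.06, MCM7 by 0.51 ± 0.03, POLA1 by 0.50 ± 0.06 and LIG1 by 0.50 ± 0.05. All 7 polymerase and primase genes, all 4 nucleotide supply genes and 5 of the 6 clamp, loader and RPA2 genes fell. For POLA2, a subunit of the primer-extending polymerase, the call was lost in 6 of 11 alternatives (log2 fold change -0.25 to -0.08, adjusted p up to 0.47), among them the fits without vehicle replicate 1 or 2 or dried ginger high replicate 2.

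With dried ginger at 500 µg/mL, 7 genes were not called and 1 rose. CDC6 was the 1 gene called higher, with 131 and 135 CPM, against 123, 124 and 121 CPM in the vehicle, a log2 fold change of 0.12 ± 0.04 (adjusted p = 0.0099). The call of CDC6 was lost in 2 of 11 alternatives, without the filter on low counts (0.11) and without dried ginger high replicate 2 (0.13). CCNE1, CCNE2 and E2F1 were not called and lay within 0.13 of the vehicle, with means of 34.63, 4.514 and 69.95 CPM, against 36.08, 4.136 and 69.05 CPM. MCM10 at -0.03, ORC6 at 0.02, CDC45 at -0.13 and RFC3 at -0.16 were also not called. Against its own low dose, dried ginger at the high dose lowered 30 genes and raised 1, CDC6, against 24.3% and 23.2% of all genes. TK1 had 53.6 and 48.5 CPM at the high dose, against 85.4, 84.3 and 91.2 CPM at the low dose, a change of -0.77 ± 0.05. At 100 µg/mL only TK1 was called, lower by 0.16 ± 0.04, against 0.746% of all genes lower and 0.703% higher, and at 20 µg/mL PRIM1 was lower and POLE higher, against 0.43% and 1.69%. The TK1 call at 100 µg/mL was lost without any 1 of the 6 libraries compared, and both calls at 20 µg/mL without dried ginger low replicate 3, which stood apart, or without vehicle replicate 1 or 3. Without vehicle replicate 2 the count at 20 µg/mL was 1.

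With fresh ginger at 500 µg/mL no gene of the 41 passed 1.5-fold, where 4.09% of all genes fell by that much. PRIM1 had 16.6, 19.5 and 20.5 CPM, against 27.2, 26.6 and 27.5 CPM in the vehicle, a log2 fold change of -0.52 ± 0.06 (adjusted p = 2.7e-10). MCM2 had 149, 135 and 134 CPM, against 186, 193 and 192 CPM, a change of -0.45 ± 0.04, and RFC5, a clamp loader subunit, and MCM5 fell by 0.43 ± 0.05 and 0.42 ± 0.05. The libraries of fresh ginger and vehicle did not overlap for any of these genes. CCNE1 fell by 0.28 ± 0.05, with 29.3, 30.7 and 29.2 CPM, against 36.2, 36.7 and 35.4 CPM.

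RRM2, CCNE2 and E2F1 rose with fresh ginger at 500 µg/mL. RRM2 had 376, 408 and 404 CPM, against 324, 333 and 321 CPM in the vehicle, a log2 fold change of 0.28 ± 0.03 (adjusted p = 2.4e-09). CCNE2 had 5.28, 5.62 and 5.85 CPM, against 4.16, 4.28 and 3.97 CPM, a change of 0.43 ± 0.14 (adjusted p = 0.0097, and 0.0034 to 0.037 over 12 alternatives). The 2 groups did not overlap for either gene. E2F1 had 78, 69.6 and 77.9 CPM, against 69.5, 68.4 and 69.2 CPM, a change of 0.12 ± 0.05 with 1 treated library just above the vehicle. Its adjusted p of 0.024 was 0.0022 to 0.12 over 12 alternatives, and the call was lost in 5, among them the fits without vehicle replicate 2 or without fresh ginger high replicate 1 or 3. RRM2 was as high at 100 µg/mL, with 388, 413 and 391 CPM, where MCM3 and POLE were also called higher and none of the 41 lower, against 6.63% of all genes higher and 4.66% lower. The count of 3 became 1 without vehicle replicate 1 or 3, or without fresh ginger medium replicate 1 or 3. At 20 µg/mL RRM2 had 328, 330 and 327 CPM, and no gene of the 41 was called, with 0.602% of all genes called either way. Against that dose the high dose lowered 26 genes and raised 3, against 24.3% and 23.3% of all genes.

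Fresh and dried ginger share a label prefix, and at 500 µg/mL fresh ginger was higher than dried in 13 of the 41 genes and lower in 3, against 13.2% and 10.2% of all genes. These 16 calls became 10 when the fit held just these groups. RRM2 had 376, 408 and 404 CPM with fresh ginger, against 270 and 267 CPM with dried, a log2 difference of 0.56 ± 0.04 (adjusted p = 1.2e-15). TK1 had 77.8, 72.0 and 74.7 CPM with fresh, against 53.6 and 48.5 CPM with dried, a difference of 0.55 ± 0.05 (adjusted p = 4e-12). These 2 nucleotide supply genes stood out from the rest, and the other 2, RRM1 and TYMS, were higher with fresh ginger by 0.28 ± 0.04 and 0.23 ± 0.05. PCNA, MCM7, LIG1 and GINS2 were higher with fresh ginger by 0.23 to 0.30. CCNE1, PRIM1 and CDC6 were lower with fresh ginger, by 0.22 ± 0.06, 0.18 ± 0.07 and 0.18 ± 0.04. For MCM5 the 2 gingers had means of 110.0 and 103.3 CPM, a difference of 0.09 ± 0.06 that was not called.

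**Figure D3:**
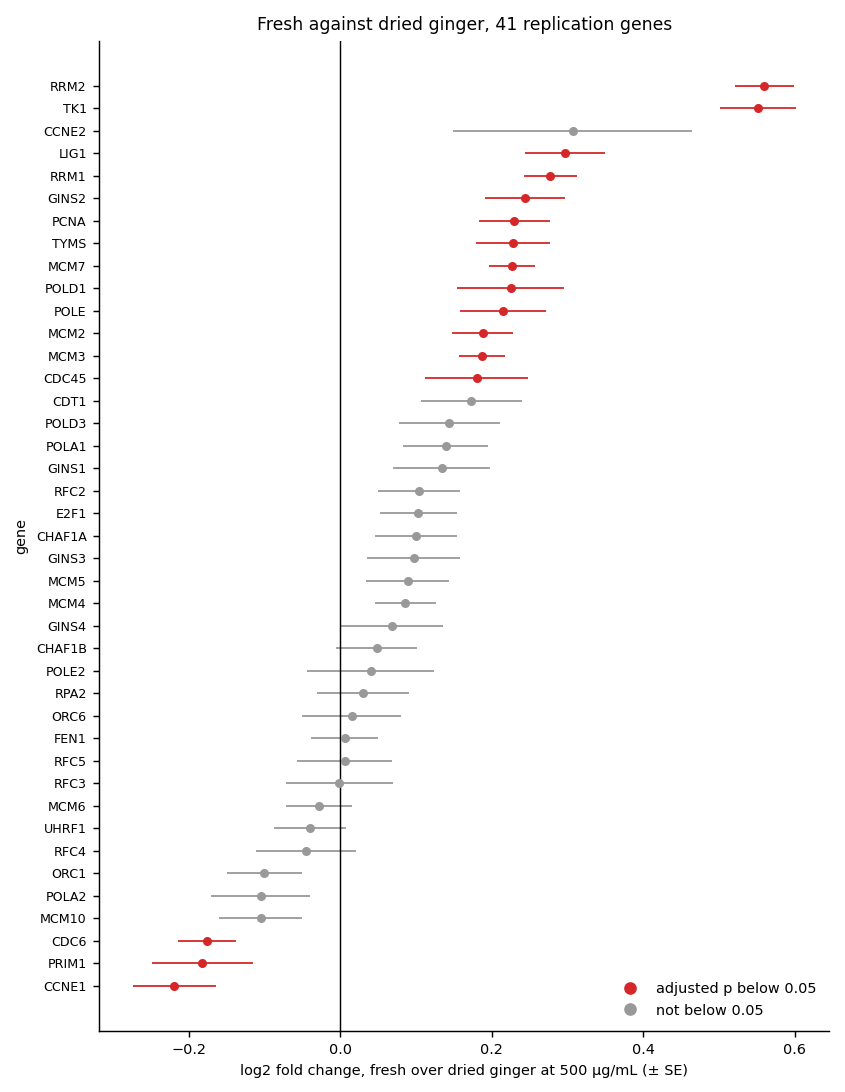
Log2 fold change of fresh over dried ginger at 500 µg/mL (horizontal axis, points with the SE as bars) for the 41 genes, sorted; red points have an adjusted p below 0.05. RRM2 and TK1 lie at 0.56 and 0.55, apart from the other red points, and CDC6, PRIM1 and CCNE1 lie at the other end.

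With Sayeok-tang at 500 µg/mL the 41 genes moved in both directions and their median was -0.01. RRM2 had 472, 456 and 467 CPM, against 324, 333 and 321 CPM in the vehicle, a log2 fold change of 0.51 ± 0.03 (adjusted p = 7e-17), the largest rise of any of the 41 genes with any of the 6 extracts tested with replicates at this dose. CDC45 had 29.3, 24.9 and 27.0 CPM, against 23.3, 22.1 and 23.4 CPM, a change of 0.24 ± 0.06, and MCM10 had 52.3, 52.1 and 54.1 CPM, against 45.9, 47.9 and 44.0 CPM, a change of 0.20 ± 0.05. The libraries of the 2 groups did not overlap for these 3 genes. CDC6 and RRM1 rose by 0.13 and 0.09, and the call of RRM1 was lost in 3 of 12 alternatives, among them the fits without vehicle replicate 2 or Sayeok-tang high replicate 1. CCNE2 had 6.78, 4.08 and 5.02 CPM, against 4.16, 4.28 and 3.97 CPM, a change of 0.35 ± 0.14 whose adjusted p of 0.043 was 0.0051 to 0.48 over 12 alternatives, 7 of which lost the call. One of its 3 treated libraries lay within the vehicle range, and without Sayeok-tang high replicate 1 the change was 0.14.

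TK1 had 78.4, 79.8 and 79.5 CPM with Sayeok-tang high, against 90.2, 93.5 and 93.6 CPM in the vehicle, a log2 fold change of -0.22 ± 0.04 (adjusted p = 2.4e-05). MCM2 and MCM5 each fell by 0.20, with SEs of 0.04 and 0.05, GINS4 fell by 0.20 ± 0.06, and RPA2, UHRF1 and TYMS fell by 0.11 to 0.14. Of 12 alternatives, the call of RPA2 was lost in 6 (adjusted p up to 0.15), among them the fits without vehicle replicate 1 or 2 or Sayeok-tang high replicate 2 or 3. That of TYMS was lost in 5 (up to 0.16), among them the fits without vehicle replicate 1 or 2 or Sayeok-tang high replicate 1 or 2, and that of UHRF1 in 2 (up to 0.06), one of them without vehicle replicate 1. Against the low dose of the formula 6 genes were higher and 10 lower, against 18.4% and 19.3% of all genes. RRM2 had 333, 344 and 340 CPM at 20 µg/mL, 370, 368 and 376 CPM at 100 µg/mL and 472, 456 and 467 CPM at 500 µg/mL. Its 3 doses did not overlap, and it was the 1 gene called at 100 µg/mL against the vehicle, higher by 0.19 ± 0.03, where 2.17% of all genes were called higher and 2.04% lower. No gene of the 41 was called at 20 µg/mL, where edgeR called 0.0574% of all genes.

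Bojungikgi-tang at 500 µg/mL lowered TK1 and MCM5. TK1 had 80.9 and 79.4 CPM, against 90.2, 93.5 and 93.6 CPM in the vehicle, a log2 fold change of -0.21 ± 0.05 (adjusted p = 0.005), and MCM5 fell by 0.18 ± 0.05 (adjusted p = 0.039). Neither TK1 nor MCM5 was called without Bojungikgi-tang high replicate 2 (adjusted p = 0.056 and 0.34) or replicate 3 (0.068 and 0.10), and MCM5 was not called without any 1 vehicle library. Bojungikgi-tang at 100 and 20 µg/mL had no call among the 41, with 0.0645% and 0% of all genes called, and high against low dose had none either, with 1.69% of all genes called. Against Sayeok-tang at 500 µg/mL, which shares its prefix, Bojungikgi-tang was lower in 4 genes and higher in 2, against 13.2% and 13% of all genes. RRM2 had 336 and 353 CPM with Bojungikgi-tang, against 472, 456 and 467 CPM with Sayeok-tang, a difference of -0.43 ± 0.04 (adjusted p = 1.7e-12). CDC45, MCM10 and CDC6 were the others that were lower, and MCM2 and UHRF1 the 2 that were higher, by 0.10 and 0.12. The count of 6 became 2 without Bojungikgi-tang high replicate 2, 3 without its replicate 3 or Sayeok-tang high replicate 1 or 2, and 4 when Sayeok-tang high replicate 3 was left out.

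Pinelliae Tuber at 500 µg/mL lowered TK1 and CCNE1. TK1 had 81.1, 78.7 and 85.2 CPM, against 90.2, 93.5 and 93.6 CPM in the vehicle, a log2 fold change of -0.18 ± 0.04 (adjusted p = 0.0019). CCNE1 had 32.7, 31.4 and 32.6 CPM, against 36.2, 36.7 and 35.4 CPM, a change of -0.16 ± 0.05 (adjusted p = 0.017). Neither gene overlapped with the vehicle, and the count was 1 without vehicle replicate 2 or without Pinelliae Tuber high replicate 2. No gene was called at 100 or 20 µg/mL, with 0.287% and 0.272% of all genes called, and high against low dose TK1 was lower and RFC5 higher, against 4.98% and 5.09% of all genes. The count of 2 became 1 without replicate 1 or 2 of the high dose or replicate 1 or 3 of the low dose. Zizyphi Fructus, with 1 library at each dose, had no gene past 1.5-fold at any dose, where 2.37% of all genes passed it at 500 µg/mL, 2.56% at 100 µg/mL and 3.38% at 20 µg/mL. Its medians were 0.04 at 20 µg/mL, 0.05 at 100 µg/mL and 0.02 at 500 µg/mL.

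Set side by side at 500 µg/mL, TK1 was the 1 gene of the 41 that was lower than the vehicle with all 6 extracts that had replicates at that dose. MCM5 was lower with 5 of them, and MCM2, GINS4, RPA2, TYMS and UHRF1 with 4. The calls of RPA2 and TYMS with Sayeok-tang, and of MCM5 with Bojungikgi-tang, were each lost in 5 or 6 of their alternatives, and those of TK1 with Bojungikgi-tang and UHRF1 with Sayeok-tang in 2. ORC1, the other MCM subunits, PCNA, POLA1 and FEN1 were among the genes lower with 3 and higher with none. How many of all genes were lower with as many extracts was not counted, and these comparisons share the 3 vehicle libraries. The 3 extracts lowering most genes were Scutellariae Radix and the 2 gingers. RRM2 was lower with Scutellariae Radix and dried ginger and higher with Sayeok-tang and fresh ginger. CDC6 was lower with Scutellariae Radix and higher with dried ginger and Sayeok-tang.

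Scutellariae Radix and dried ginger, which have different label prefixes, were compared at 500 µg/mL after the data were seen. The levels were lower with Scutellariae Radix in 33 genes and higher in 2, against 15.9% and 15.3% of all genes. CDC6 differed most, with 78.3, 82.8 and 79.6 CPM with Scutellariae Radix, against 131 and 135 CPM with dried ginger, a log2 difference of -0.73 ± 0.04. UHRF1 at -0.65 ± 0.05 and MCM10 at -0.64 ± 0.06 came next. PCNA and TYMS were higher with Scutellariae Radix, PCNA with 346, 330 and 342 CPM, against 300 and 298 CPM with dried ginger, a difference of 0.18 ± 0.05 (adjusted p = 0.0024). TYMS was higher by 0.20 ± 0.05. Extract and label prefix cannot be told apart in this pair.

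Some of the 41 genes share exonic bases with neighbours, and 14 of them with a gene on the other strand in GENCODE release 29. The library kit keeps the strand, but whether the counting used it is not given in the sources used here. CCNE2 shares 37% of its exonic bases with INTS8 on the opposite strand, and INTS8 rose by 0.22 ± 0.06 with Sayeok-tang high, while it was not called with Scutellariae Radix or either ginger at 500 µg/mL. TYMS shares 39.1% with ENOSF1 on the opposite strand, which rose by 0.17 ± 0.07 with dried ginger, 0.14 ± 0.06 with fresh ginger and 0.15 ± 0.06 with Sayeok-tang, while TYMS fell with all 3. TYMS also shares 7.41% with TYMSOS, which fell with the same 3 extracts, by 0.66 ± 0.09, 0.29 ± 0.08 and 0.30 ± 0.08. RRM2 shares 20.2% and POLA2 35.1% with a gene of the same strand, and each of those 2 had too few reads to be tested. MCM2 shares 22.7% with AC023593.1 on the opposite strand, which was not tested. GINS4 shares 21.2% with AC009630.2 on the opposite strand, at 3.227 CPM in the vehicle. AC009630.2 fell by 0.615 ± 0.211 with fresh ginger high and changed by -0.758 in the library of Coptidis Rhizoma medium. It was not called with Scutellariae Radix, dried ginger or Sayeok-tang at 500 µg/mL. RSEM divides reads that fit several genes, and PCNA, RFC3, RFC5, RPA2, FEN1, RRM2 and TYMS have named pseudogenes, so their counts depend on that division.

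Other genes of the cell cycle were counted on lists chosen by name. Beside these counts stand the shares of all genes called lower and higher, which were 28.1% and 28.7% with Scutellariae Radix, 22.8% and 23.3% with dried ginger, 23.6% and 24.3% with fresh ginger and 19.9% and 20.3% with Sayeok-tang. Of 28 other genes of the replication machinery, 20 were lower and 3 higher with Scutellariae Radix high, with a median of -0.38. TOP2A, the topoisomerase that untangles copied DNA, averaged 362.3 CPM, against 644.3 CPM in the vehicle, a log2 fold change of -0.83 ± 0.04. POLD4, the small subunit of the lagging strand polymerase, rose by 1.02 ± 0.09, with 14.51 CPM, against 7.201 CPM. POLD4 also rose with dried ginger by 0.87 ± 0.10 and with fresh ginger by 0.55 ± 0.09. In the counts of this list dried ginger lowered 18 and raised 2, fresh ginger lowered 15 and raised 2, and Sayeok-tang lowered 4 and raised 6.

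Nucleotide metabolism outside the 41 moved less. Of 16 other genes of nucleotide supply, 8 were lower and 2 higher with Scutellariae Radix high, with a median of -0.13. SAMHD1, which degrades deoxynucleotides, fell by 0.61 ± 0.04. RRM2B, the ribonucleotide reductase subunit that p53 induces, rose by 0.56 ± 0.05, with 72.29 CPM, against 49.1 CPM in the vehicle, while RRM2 fell. SAMHD1 was also lower with dried ginger, fresh ginger and Sayeok-tang, by 0.45, 0.43 and 0.28.

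Of 30 S phase regulators and other E2F targets, 26 were lower and 1 higher with Scutellariae Radix high, with a median of -0.61, close to the -0.60 of the 41 genes. E2F8, itself an E2F target, fell by 1.15 ± 0.07, TCF19 by 0.98 ± 0.05, and CCNA2, cyclin A2 of S and G2 phase, by 0.89 ± 0.04. Dried ginger lowered 24 and raised 1, fresh ginger lowered 19 and raised 3, and Sayeok-tang lowered 7 and raised 5. With both gingers ASF1B, a histone chaperone, fell most on this list, by 0.89 ± 0.05 with dried and 0.70 ± 0.05 with fresh. The median log2 fold change of the 19 genes of the 41 with an E2F-type word was -0.63 with Scutellariae Radix, -0.30 with dried ginger and -0.24 with fresh ginger, beside -0.57, -0.18 and -0.14 in the 16 matched genes without one. The difference between these sets was not tested, and the 6 genes that were not matched are in neither.

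All 20 mitosis genes fell with Scutellariae Radix high, dried ginger high and fresh ginger high, with medians of -0.84, -0.76 and -0.46, where the 41 replication genes had -0.60, -0.28 and -0.20. KIF20A, a kinesin of cell division, averaged 31.41, 30.2 and 41.88 CPM with these 3 extracts, against 76.69 CPM in the vehicle. With Coptidis Rhizoma at 56 µg/mL all 20 were at least 1.5-fold below the vehicle, with a median of -1.14. Sayeok-tang lowered 7 and raised none, with a median of -0.06.

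Of 17 CDK inhibitors and p53 targets, 13 were higher and 3 lower with Scutellariae Radix high. These counts are for Scutellariae Radix alone. The counts of this list with the gingers, Sayeok-tang and Coptidis Rhizoma are not given here, so a rise of the list with those extracts cannot be read from them. CDKN1A averaged 454.9 CPM, against 102.3 CPM in the vehicle, a log2 fold change of 2.15 ± 0.04 (adjusted p = 2.4e-40), and CDKN2B, another CDK inhibitor, rose by 2.47 ± 0.08, with 35.22 CPM, against 6.36 CPM. CDKN1A moved differently with the 2 gingers, which both lowered most of the 41 genes, with means of 223.8 CPM with fresh and 112.3 CPM with dried ginger. Fresh exceeded dried by 0.99 ± 0.04 (adjusted p = 9.7e-24). Against the vehicle its change was 1.13 ± 0.04 with fresh ginger, 0.14 ± 0.04 with dried ginger, 0.55 ± 0.04 with Sayeok-tang, -0.17 ± 0.04 with Bojungikgi-tang and -0.41 ± 0.04 with Pinelliae Tuber. CDKN2C, a CDK inhibitor that is itself an E2F target, fell with Scutellariae Radix, dried ginger, fresh ginger and Sayeok-tang, by 1.43, 1.06, 0.89 and 0.48. The change of CDKN1A with Coptidis Rhizoma is not given here. Any part of CDKN1A or of this list in the changes of the 41 genes was not tested.

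**Figure D4:**
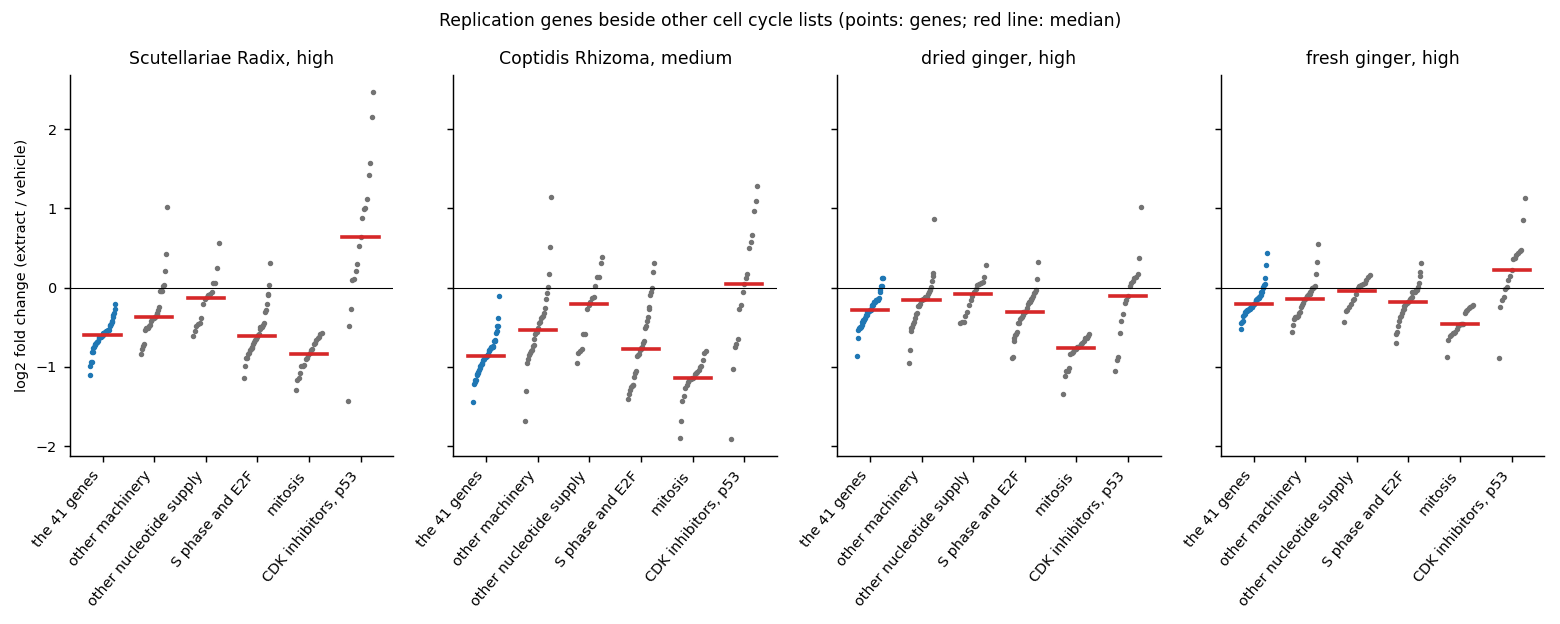
Log2 fold change over the vehicle (vertical axis) of each gene of the 41 (blue) and of 5 other lists (grey) with 4 extracts, at 500 µg/mL or, for Coptidis Rhizoma, 1 library at 56 µg/mL; red lines are list medians. The median of the mitosis list lies below that of the 41 genes in every panel, at -0.84 beside -0.60 with Scutellariae Radix. With that extract the genes of these lists overlap. The CDK inhibitor and p53 list spreads widely to both sides.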

How the data were processed

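The authors' table gave expected counts per gene for each library, per the submitters' processing notes made with FastQC 0.11.9, Trim Galore 0.6.5, STAR 2.7.3a and RSEM 1.3.3 on GRCh38; 75.26% of the nonzero deposited expected counts were whole. The table's other 209 columns were not used. Expected counts were rounded and tested in R 4.3.3 with edgeR 4.0.16 (glmQLFit and glmQLFTest, TMM factors 0.878 to 1.04), with 1 mean per group over all 58 libraries, on the 13945 genes that reached 1 CPM in 3 or more libraries. Two-sided p-values were adjusted by Benjamini-Hochberg over all genes and called below 0.05; 27 comparisons were planned and 2 added after the data were seen. SEs were obtained by dividing the absolute log2 fold change by the root of the F statistic. The common dispersion of 0.00181 is a coefficient of variation of 4.25% between replicates, and replicate pairs differed by a chi-square of 2.177 per gene or more, so none was a copy. Groups of 1 library have no test, and a gene past 1.5-fold and outside the vehicle range was counted. Symbols came from a current table by gene identifier (56558 of 60675), and a symbol shared by several identifiers went to the one with most reads. DESeq2 1.42.0, another scaling, no filter, a fit of only the groups compared, a replicate block and leaving out libraries were tried. The test was run on simulated counts with known changes first. Values in every library are given for a fixed panel of the 41 genes and for up to 4 called genes with the largest fall and rise at each high dose. Up to 3 called genes were named per other list and extract. Further values of GINS1, of CDKN1A, SAMHD1, RRM2B and POLD4 with other extracts, and of INTS8, ENOSF1, TYMSOS and AC009630.2, were chosen after they were seen. The genes, lists, comparisons and alternatives were chosen with earlier results of these data known.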

Additional observations from a re-analysis of the deposited data

Results flagged for a closer look

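Comparisons of the 41 genes between 2 extracts, or 2 doses, whose direct test called some genes stand here, each with the share of all genes called in the same comparison. Bojungikgi-tang and Sayeok-tang at 500 µg/mL differed in 6 genes, with 2 higher and 4 lower in Bojungikgi-tang, against 13% and 13.2% of all genes, and leaving out 1 library gave 2 to 4 genes. Fresh and dried ginger at 500 µg/mL differed in 16 genes, with 13 higher and 3 lower in fresh ginger, against 13.2% and 10.2% of all genes, and in 10 when the fit held just these groups. Pinelliae Tuber and Scutellariae Radix at 500 µg/mL differed in all 41 genes, each higher with Pinelliae Tuber, against 28.7% of all genes. Scutellariae Radix and dried ginger at 500 µg/mL differed in 35 genes, with 2 higher and 33 lower in Scutellariae Radix, against 15.3% and 15.9% of all genes, across 2 label prefixes. Scutellariae Radix at 500 and at 100 µg/mL differed in 41 genes, all lower at 500 µg/mL, against 27.1% of all genes.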

How the results depend on the processing

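Of 34 counts of called genes, 24 stayed within 1.5 times under each alternative run, and 46 of 367 alternative counts moved by more. With no filter on low counts, Pinelliae Tuber high had 1 call in place of 2, dried ginger medium 2 in place of 1, Scutellariae Radix medium 6 in place of 10, dried ginger low 1 in place of 2, and Bojungikgi-tang against Sayeok-tang 3 in place of 6. Without the 3 libraries that stood apart, an alternative added after the data were seen, dried ginger medium had 2, dried ginger low 0 and Scutellariae Radix low 0 in place of 3. DESeq2 gave 1 for dried ginger low. When each fit held just the groups being compared, dried ginger medium had 2, dried ginger low 0, Scutellariae Radix low 0, Pinelliae Tuber high against low 1 in place of 2, and fresh against dried ginger 10 in place of 16. The cause was not tested.

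Leaving out 1 library at a time gave 0 to 1 calls for Bojungikgi-tang high, 1 to 3 for Pinelliae Tuber high, 1 to 3 for fresh ginger medium, 0 for dried ginger medium, 6 to 9 for Scutellariae Radix medium, 0 to 3 for dried ginger low, 0 to 3 for Scutellariae Radix low, 1 to 2 for Pinelliae Tuber high against low, and 2 to 4 for Bojungikgi-tang against Sayeok-tang. The counts of Scutellariae Radix high stayed at 40 to 41, dried ginger high at 28 to 35 and fresh ginger high at 29 to 33. Where a group had 2 libraries, the one left was assumed to vary like the others.

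Replicate numbers did not pair the samples: in none of 29 comparisons did every pair correlate above 0.1, and correlations ran from -0.157 to 0.206. A replicate block gave 15 calls in place of 16 for Sayeok-tang high against low and 30 in place of 31 for dried ginger high against low, and changed no other count; groups of 1 library allow none. Of 2861 alternative values for 244 single-gene results, 156 lost the call and 0 reversed. Another scaling moved the median of all genes by at most 0.0084.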
